A study of Mus musculus with 15 samples.

Results

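The genes of the synaptic vesicle and of transmitter release were compared across 5 dissected regions of the embryonic mouse brain. The set was a list of 38 gene symbols, and all 38 were found among the 24264 genes of the deposited table. Rims1 was present as 2 rows, which are shown as Rims1_loc1 and Rims1_loc2, so the set took up 39 rows, and all 39 passed the filter on low values. The study measured RNA from ventral midbrain, hindbrain, forebrain, alar plate and dorsal midbrain, with 3 libraries of each, 15 in all. Every embryo was at E12.5, a day of gestation when midbrain neurons are being born, on the C57bl/6 strain, and expressed GFP, a fluorescent reporter, from the promoter of the dopamine synthesis gene Th. This reporter was shared by all 5 groups, and no group without it was analysed here. The tissue was cut out under a microscope and was not sorted for the reporter as far as the labels tell. The labels give no position for the alar plate, which is the dorsal plate of the neural tube and can therefore adjoin or hold part of the other dorsal tissue. Nor do they state that the 3 libraries of 1 region are from different embryos. The p-values thus rest on the variation among these libraries, part of which may be technical.

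Transmitter release runs through a cycle. Vesicles carrying Sv2 glycoproteins, synaptophysin and synaptogyrins are held in a pool by synapsins, brought to the active zone by Rab3 and its effectors, made ready by Munc13 and CAPS proteins, and fused with the cell membrane by the SNARE proteins when synaptotagmin binds calcium. Dynamin, amphiphysin and endophilin then take the membrane back. Neurons switch these genes on after they leave the cell cycle, while dividing progenitors keep many of them silent, in part through the repressor REST.

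Values are RPKM, read numbers corrected for gene length and library size, so that levels of different genes can be compared. Differences are on the scale log2(RPKM + 1), on which genes of low level appear to change less than they do. A gene was called when its adjusted p in limma, corrected over all 13745 genes tested, was under 0.05. Reads recovered from the table came to 7744033 to 11702736 per library, and 3 reads of a gene of median length corresponded to 0.0770 to 0.116 RPKM, a floor that covers counting error only. RNA of whole tissue was measured, so fewer neurons in a region and less of the RNA in each neuron cannot be told apart in any of the values below.

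3 libraries stood apart from their regions, and results are given with and without them. The share of all genes called is given only for the main fit of all 15 libraries. Counts of rows called in any other fit therefore have no such share beside them. In alar plate 3 the deviation of a gene from its mean followed gene length, with a Spearman correlation across genes of -0.616, while the other 14 libraries lay between -0.0682 and 0.235. Alar plate 3 and forebrain 1 carried Gbx2, a gene of the anterior hindbrain and the thalamus, at 73.0 and 111 RPKM, while the other 13 libraries had at most 14.1 RPKM. Dorsal midbrain 3 carried Tcf7l2, a marker of the caudal forebrain, at 378 RPKM, against 22.9 and 18.9 RPKM in dorsal midbrain 1 and 2. Hindbrain 1 also differed from its region, but was kept in the fits without the 3 libraries. It had the hindbrain markers Hoxa2 and Hoxb2 at 0.107 and 0 RPKM. Hindbrain 2 had them at 11.1 and 8.99 RPKM, and hindbrain 3 at 6.24 and 3.05 RPKM. The hindbrain marker Tph2 went the other way, at 27.8 RPKM in hindbrain 1 against 15.2 and 15.7 RPKM. The summed level of 5 dorsal midbrain markers (Pax3, Pax7, Fzd10, Zic1 and Otx2) was 328 to 476 RPKM in the dorsal midbrain and at most 189 RPKM elsewhere, and that of 5 dopaminergic markers (Th, Ddc, Pitx3, Foxa2 and Lmx1a) was 387 to 421 RPKM in the ventral midbrain and at most 93.8 RPKM elsewhere.

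All 39 rows were detected as expressed at this stage, with means over the 15 libraries of at least 1 RPKM. In 24 rows the mean was at least 10 RPKM and in 5 rows, Syt11, Vamp2, Rab3a, Cplx2 and Rab3c, it was at least 50 RPKM. The dorsal midbrain had the lowest region mean in 28 of 39 rows, the alar plate in 8, the ventral midbrain in 2, the forebrain in 1 and the hindbrain in 0. The highest mean was in the hindbrain for 20 rows, in the forebrain for 13, in the ventral midbrain for 5, in the dorsal midbrain for 1 and in the alar plate for 0. The order of the regions was counted over the 39 rows and not over all genes, so these counts describe the set without a comparison. A difference among the 5 regions was called for 23 of the 39 rows, where 33.7% of all genes tested were called. It was called for 35 rows without alar plate 3, for 7 without dorsal midbrain 1 or without dorsal midbrain 2, for 14 without hindbrain 2 or 3, and for 15 without forebrain 2 or 3.

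**Figure D1:**
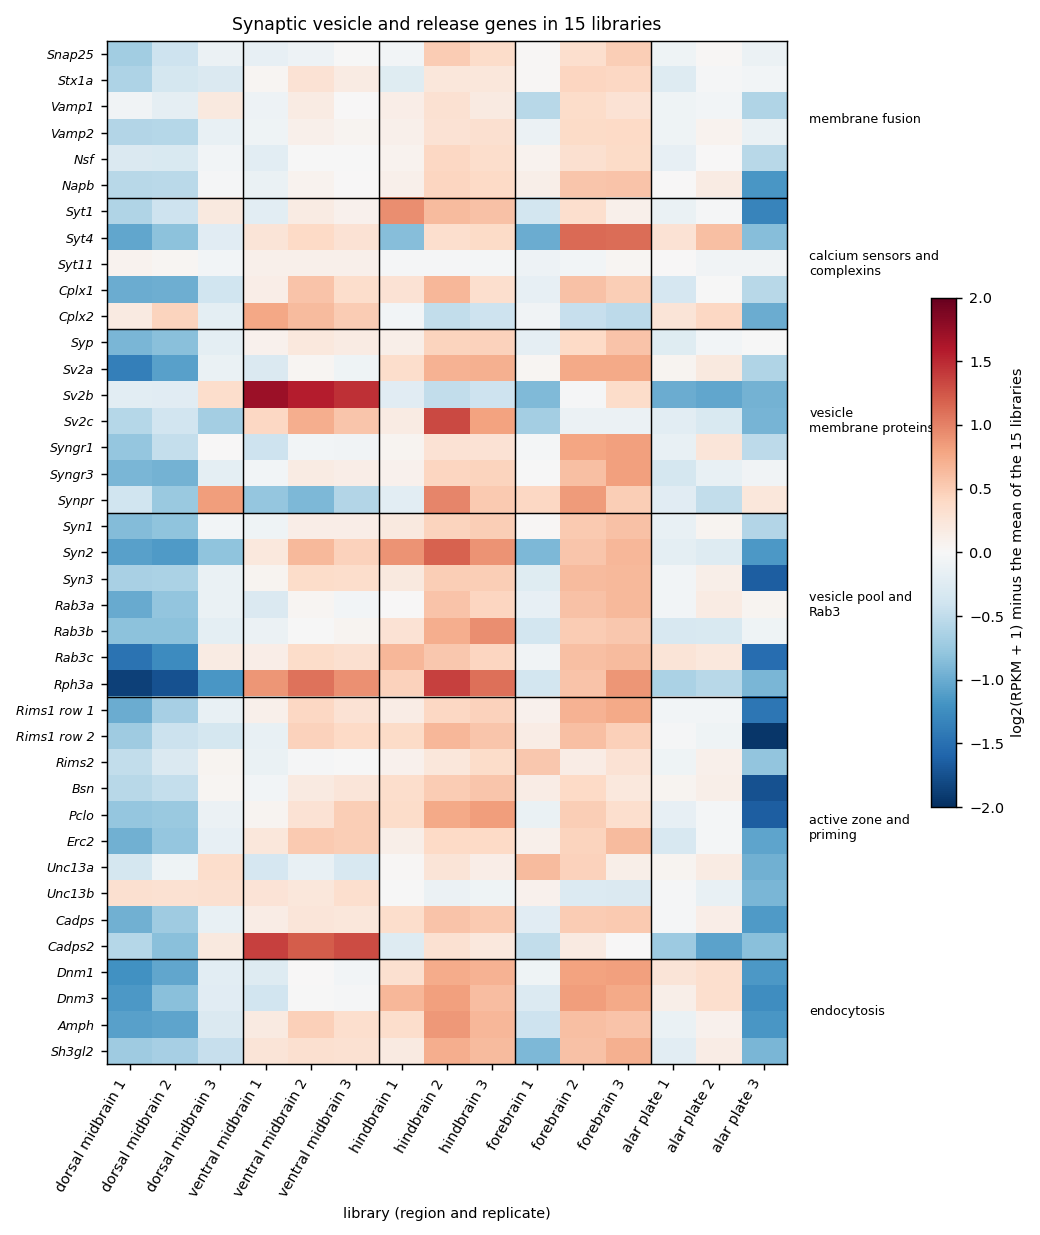
Each row is a row of the table for 1 vesicle or release gene, grouped by role, and each column 1 of the 15 libraries, with the dorsal midbrain at the left. Colour gives log2(RPKM + 1) minus the mean of that row, and dorsal midbrain 1 and 2 and alar plate 3 are below the row mean in most rows.

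Within regions the libraries also differed in the 39 rows, and the same counts were not made over all genes. Dorsal midbrain 3 lay above both other dorsal midbrain libraries in 35 of 39 rows. Forebrain 1 lay below both other forebrain libraries in 35 rows, alar plate 3 below both others in 30, hindbrain 1 in 32, ventral midbrain 1 in 33 and dorsal midbrain 1 in 28. The median of the members, on the log2(RPKM + 1) scale, was 3.09, 3.16 and 3.82 in the dorsal midbrain, against 3.95, 4.17 and 4.14 in the ventral midbrain and 4.07, 4.10 and 4.04 in the hindbrain. Forebrain medians were 4.002, 4.30 and 4.02 and alar plate medians 3.84, 3.92 and 2.93. Dorsal midbrain 1 and 2 and alar plate 3 were the 3 lowest of the 15, and dorsal midbrain 3 came next.

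In the dorsal midbrain, set against the mean of the other 4 regions, 20 of 39 rows were called lower and 0 were called higher, where 13.8% of all genes tested were called lower and 18.2% higher. The vesicle docking protein Rph3a, the synapsin Syn2, the vesicle glycoprotein Sv2a, the vesicle GTPase Rab3c and the membrane-cutting dynamin Dnm1 had the largest differences. The median difference over the 39 rows was -0.68 on the log2(RPKM + 1) scale, against 0.05 over all genes tested. All 3 dorsal midbrain libraries were below all 12 others for Stx1a, Vamp2 and Rph3a, where 2.38% of all genes tested showed such a gap. Without the 3 libraries that stand apart, 35 rows were called lower and 2 higher, and the 20 rows called lower with them were among the 35. The median difference over the 39 rows was then -0.98, against 0.05 over all genes tested. The share of all genes called in that fit is not given here, so the 35 cannot be set against it. The number called rested on the pair of dorsal midbrain 1 and 2: it was 4 without dorsal midbrain 1 and 7 without dorsal midbrain 2, all lower. Without alar plate 3 it was 31, with 30 lower and 1 higher.

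**Figure D2:**
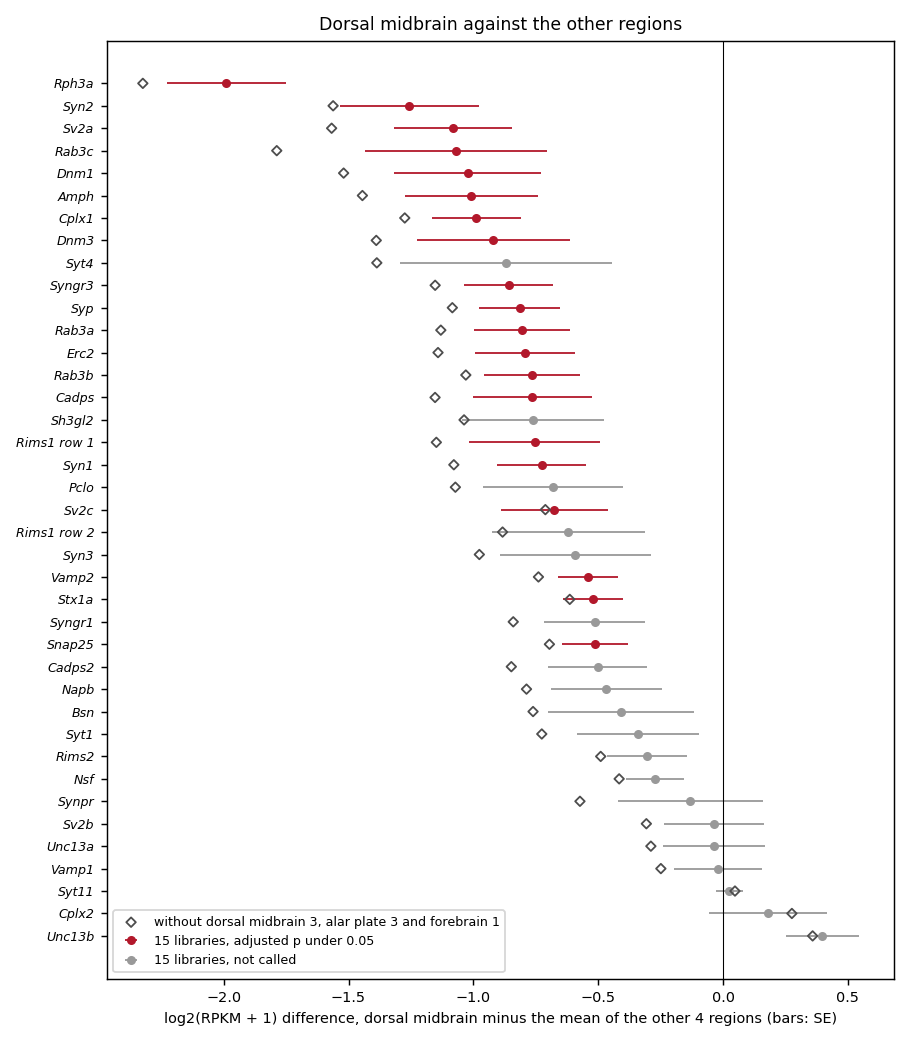
Points are the difference of the dorsal midbrain from the mean of the other 4 regions on the log2(RPKM + 1) scale for each of the 39 rows, with bars for 1 standard error, and diamonds are the same differences without dorsal midbrain 3, alar plate 3 and forebrain 1. The points lie below 0 in 36 rows, from -1.99 for Rph3a to 0.40 for Unc13b.

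Of the 7 proteins of the vesicle membrane, 4 were called lower in the dorsal midbrain. Syp encodes synaptophysin, one of the most abundant proteins of the vesicle, and had 24.7, 26.3 and 41.3 RPKM in the dorsal midbrain, against 50.7, 55.3 and 53.5 RPKM in the ventral midbrain and 51.6, 65.4 and 66.04 RPKM in the hindbrain. Forebrain values of Syp were 41.7, 63.5 and 71.4 RPKM and alar plate values 39.9, 45.8 and 47.2 RPKM. Dorsal midbrain 1 and 2 were the lowest of all libraries and dorsal midbrain 3 overlapped the alar plate, with a difference from the other regions of -0.81 ± 0.16 (SE; limma, adjusted p = 0.00371). Sv2a, the vesicle glycoprotein found in nearly all neurons, had 14.5, 17.8 and 35.4 RPKM in the dorsal midbrain, against 31.6, 39.9 and 36.8 RPKM in the ventral midbrain and 50.2, 63.6 and 64.4 RPKM in the hindbrain. Forebrain values of Sv2a were 40.2, 66.4 and 66.8 RPKM and alar plate values 40.4, 44.8 and 25.4 RPKM. Again dorsal midbrain 1 and 2 were the lowest of the 15, dorsal midbrain 3 was above alar plate 3 and ventral midbrain 1, and the difference was -1.08 ± 0.24 (SE; limma, adjusted p = 0.00555). Syngr3, a synaptogyrin, had 7.51, 7.33 and 13.1 RPKM in the dorsal midbrain, against 14.5, 17.03 and 16.7 RPKM in the ventral midbrain and 16.02, 20.6 and 20.99 RPKM in the hindbrain. Forebrain values of Syngr3 were 15.02, 23.6 and 27.6 RPKM and alar plate values 11.6, 13.6 and 14.4 RPKM. Its difference was -0.86 ± 0.18 (SE; limma, adjusted p = 0.0044), with only alar plate 1 reaching into the dorsal midbrain range. Sv2c, the relative of Sv2a known from basal brain regions, was near the floor in several libraries, with 0.338, 0.525 and 0.239 RPKM in the dorsal midbrain, against 1.63, 2.27 and 1.90 RPKM in the ventral midbrain and 1.22, 3.94 and 2.48 RPKM in the hindbrain. Forebrain values of Sv2c were 0.234, 0.831 and 0.833 RPKM and alar plate values 0.708, 0.609 and 0.0449 RPKM. Its dorsal midbrain values lay below every ventral midbrain and hindbrain value, but forebrain 1 and alar plate 3 were lower than all 3 of them. The difference was -0.68 ± 0.21 (SE; limma, adjusted p = 0.0296). The remaining vesicle membrane genes, Syngr1, Synpr and Sv2b, were not called in the dorsal midbrain, with means over all libraries of 8.11, 2.81 and 1.92 RPKM.

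In the vesicle pool and Rab3 group, 6 of 7 genes were called lower in the dorsal midbrain, where 13.8% of all genes tested were called lower. Rph3a encodes rabphilin, which binds Rab3 on the vesicle and had 0.797, 0.964 and 1.95 RPKM in the dorsal midbrain, against 11.1, 12.97 and 11.4 RPKM in the ventral midbrain and 8.07, 15.97 and 13.04 RPKM in the hindbrain. Forebrain values of Rph3a were 4.09, 8.78 and 11.2 RPKM and alar plate values 3.23, 3.46 and 2.47 RPKM. No dorsal midbrain library reached any other library, the alar plate came next from below, and the difference was -1.99 ± 0.24 (SE; limma, adjusted p = 0.000243). Syn2, a synapsin that ties vesicles to one another, had 1.07, 1.01 and 1.52 RPKM in the dorsal midbrain, against 4.07, 5.91 and 5.05 RPKM in the ventral midbrain and 7.15, 8.93 and 7.17 RPKM in the hindbrain. Forebrain values of Syn2 were 1.36, 5.43 and 5.99 RPKM and alar plate values 2.84, 2.69 and 0.987 RPKM. All 3 dorsal midbrain libraries were below every other library except alar plate 3 and forebrain 1, with a difference of -1.26 ± 0.28 (SE; limma, adjusted p = 0.00586). Syn1, the synapsin encoded on the X chromosome, had 11.6, 12.2 and 21.2 RPKM in the dorsal midbrain, against 20.9, 24.3 and 24.3 RPKM in the ventral midbrain and 25.3, 30.5 and 31.5 RPKM in the hindbrain. Forebrain values of Syn1 were 22.4, 32.3 and 33.6 RPKM and alar plate values 19.8, 22.9 and 14.3 RPKM. Dorsal midbrain 1 and 2 were the lowest of all libraries, dorsal midbrain 3 overlapped the alar plate and ventral midbrain 1, and the difference was -0.73 ± 0.18 (SE; limma, adjusted p = 0.00937).

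The 3 Rab3 GTPases, which sit on the vesicle and guide it to the active zone, were all called lower. Rab3a had the highest mean of the group, with 33.5, 39.1 and 62.7 RPKM in the dorsal midbrain, against 55.98, 70.3 and 66.2 RPKM in the ventral midbrain and 68.9, 102 and 92.7 RPKM in the hindbrain. Forebrain values of Rab3a were 61.1, 103 and 108 RPKM and alar plate values 66.2, 76.999 and 71.2 RPKM. Dorsal midbrain 1 and 2 were the lowest of all libraries while dorsal midbrain 3 was above ventral midbrain 1 and forebrain 1, and the difference was -0.81 ± 0.19 (SE; limma, adjusted p = 0.00832). Rab3c had 17.96, 21.2 and 58.6 RPKM in the dorsal midbrain, against 57.2, 67.5 and 64.8 RPKM in the ventral midbrain and 82.96, 76.2 and 70.3 RPKM in the hindbrain. Forebrain values of Rab3c were 49.5, 79.8 and 81.3 RPKM and alar plate values 62.1, 60.4 and 17.4 RPKM. Its difference was -1.07 ± 0.36 (SE; limma, adjusted p = 0.0396), and dorsal midbrain 3 was close to the ventral midbrain while alar plate 3 was the lowest of all. Rab3b was lower in level, with 2.15, 2.17 and 3.88 RPKM in the dorsal midbrain, against 4.15, 4.54 and 4.78 RPKM in the ventral midbrain and 5.84, 8.21 and 9.60 RPKM in the hindbrain. Forebrain values of Rab3b were 3.30, 6.97 and 7.08 RPKM and alar plate values 3.48, 3.52 and 4.23 RPKM. Its difference was -0.76 ± 0.19 (SE; limma, adjusted p = 0.011), and dorsal midbrain 3 overlapped the alar plate and forebrain 1. Syn3, the third synapsin, ranged from 0.991 RPKM in alar plate 3 to 8.75 RPKM in forebrain 3 and was not called in any comparison.

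The sequence before the start site of Syn1 is shown because it holds letters of the element bound by REST, the repressor that keeps neuronal genes silent in other cells. RefSeq promoter windows of 300 bases on GRCm38.p6 were matched to 32 of the 38 members, giving 41 windows among 32851. The motif searched was TTCAGCACC, the first part of that element, as an exact match on both strands. It was found in 122 of all windows, or 0.371%, and in 2 of the 41 member windows, those of Syn1 and Unc13a. In Unc13a it lay 23 to 31 bases after the start site on the opposite strand. The 250 bases of the Syn1 window before the start site, chrX:20920919-20921168 on the minus strand, are printed 5′ to 3′ with the motif in capitals.
Syn1: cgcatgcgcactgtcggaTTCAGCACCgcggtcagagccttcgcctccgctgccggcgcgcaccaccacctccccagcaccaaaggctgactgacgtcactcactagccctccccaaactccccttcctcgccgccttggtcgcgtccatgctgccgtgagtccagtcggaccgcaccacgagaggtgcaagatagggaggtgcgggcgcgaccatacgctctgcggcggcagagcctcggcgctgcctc
The motif lay 232 to 224 bases before the start site, on the strand of the gene. A match of these letters is a description and does not show that REST binds there. Rest had 4.06, 4.09 and 3.49 RPKM in the dorsal midbrain, against 3.58, 3.17 and 3.19 RPKM in the ventral midbrain and 2.31, 2.35 and 3.03 RPKM in the hindbrain. Forebrain values of Rest were 1.51, 2.22 and 1.77 RPKM and alar plate values 2.76, 2.23 and 0.515 RPKM. Its dorsal midbrain values were above every other library, except that ventral midbrain 1 exceeded dorsal midbrain 3. The difference of Rest from the other regions was 0.58 ± 0.20 (SE; limma, adjusted p = 0.0439). Of the 2 members with the motif, Syn1 was called lower in the dorsal midbrain and Unc13a was not called, at -0.04 (limma, adjusted p = 0.909).

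Of the 10 rows of active zone and priming genes, 3 were called lower in the dorsal midbrain. Cadps, a CAPS protein that prepares dense-core vesicles for release, had the highest mean of the group, with 13.03, 15.7 and 23.7 RPKM in the dorsal midbrain, against 29.5, 31.4 and 31.2 RPKM in the ventral midbrain and 34.1, 39.7 and 38.3 RPKM in the hindbrain. Forebrain values of Cadps were 22.3, 37.9 and 38.3 RPKM and alar plate values 25.98, 29.04 and 11.4 RPKM. Dorsal midbrain 1 and 2 were below every library except alar plate 3, and the difference was -0.76 ± 0.24 (SE; limma, adjusted p = 0.0284). Erc2, a scaffold of the active zone, had 8.18, 9.43 and 15.02 RPKM in the dorsal midbrain, against 19.997, 24.6 and 24.1 RPKM in the ventral midbrain and 18.5, 22.6 and 22.5 RPKM in the hindbrain. Forebrain values of Erc2 were 18.1, 23.5 and 26.6 RPKM and alar plate values 13.3, 16.5 and 7.57 RPKM. Dorsal midbrain 3 reached into the alar plate range and the difference was -0.79 ± 0.20 (SE; limma, adjusted p = 0.0107). Rims1, which links Rab3 to the release site, had in the row Rims1_loc1 1.58, 2.24 and 3.63 RPKM in the dorsal midbrain, against 4.50, 5.89 and 5.32 RPKM in the ventral midbrain and 4.69, 5.85 and 6.09 RPKM in the hindbrain. Forebrain values of Rims1 were 4.49, 7.30 and 7.70 RPKM and alar plate values 3.94, 3.93 and 0.897 RPKM. All 3 dorsal midbrain libraries were below every library except alar plate 3, with a difference of -0.75 ± 0.26 (SE; limma, adjusted p = 0.0426). The other Rims1 row was not called, at -0.62 (limma, adjusted p = 0.14), and how reads were divided between the 2 rows is not given in the sources used here.

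The giant scaffolds Bsn and Pclo had the longest gene models of the set, at 5.61 and 7.75 times the length of the median gene, and alar plate 3 was far below the other libraries in both. Pclo had 1.86, 1.93 and 3.54 RPKM in the dorsal midbrain, against 4.11, 5.02 and 5.89 RPKM in the ventral midbrain and 5.34, 7.25 and 7.74 RPKM in the hindbrain. Forebrain values of Pclo were 3.46, 5.86 and 5.18 RPKM and alar plate values 3.37, 3.79 and 0.569 RPKM. Dorsal midbrain 1 and 2 were below every library except alar plate 3, and the difference of the dorsal midbrain was not called, at -0.68 ± 0.28 (SE; limma, adjusted p = 0.0788), while leaving out the 3 libraries that stand apart gave -1.07 (limma, adjusted p = 3.32e-05). Bsn ranged from 2.37 RPKM in alar plate 3 to 15.5 RPKM in hindbrain 3 and was not called in any comparison, and Rims2 ranged from 5.35 to 14.97 RPKM. Unc13a, the main Munc13 priming protein of forebrain synapses, ranged from 6.37 to 21.3 RPKM and was not called either.

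Of the 6 genes of membrane fusion, 3 were called lower in the dorsal midbrain. Vamp2, the SNARE protein of the vesicle, had the highest mean of the group, with 49.6, 49.99 and 67.6 RPKM in the dorsal midbrain, against 70.7, 80.1 and 77.5 RPKM in the ventral midbrain and 80.3, 91.97 and 93.4 RPKM in the hindbrain. Forebrain values of Vamp2 were 68.7, 97.9 and 99.4 RPKM and alar plate values 70.5, 78.6 and 67.8 RPKM. The highest dorsal midbrain value was just under the lowest of the other 12, and the difference was -0.54 ± 0.12 (SE; limma, adjusted p = 0.00575). Stx1a, a SNARE protein of the cell membrane, had 12.6, 15.2 and 16.04 RPKM in the dorsal midbrain, against 20.4, 24.4 and 22.3 RPKM in the ventral midbrain and 16.6, 23.3 and 23.3 RPKM in the hindbrain. Forebrain values of Stx1a were 19.97, 27.01 and 26.6 RPKM and alar plate values 16.3, 19.4 and 18.9 RPKM. No dorsal midbrain library reached the others here either, by a narrow margin to alar plate 1, and the difference was -0.52 ± 0.12 (SE; limma, adjusted p = 0.0073). Snap25, its partner SNARE protein, had 21.2, 26.1 and 31.98 RPKM in the dorsal midbrain, against 31.03, 32.6 and 34.9 RPKM in the ventral midbrain and 33.5, 49.97 and 45.3 RPKM in the hindbrain. Forebrain values of Snap25 were 35.4, 44.6 and 49.3 RPKM and alar plate values 33.02, 35.5 and 32.3 RPKM. Only ventral midbrain 1 reached into the dorsal midbrain range and the difference was -0.51 ± 0.13 (SE; limma, adjusted p = 0.0121). Nsf, the ATPase that takes SNARE complexes apart after fusion, had 24.4, 24.1 and 28.9 RPKM in the dorsal midbrain, against 25.9, 29.8 and 29.8 RPKM in the ventral midbrain and 31.8, 40.3 and 38.5 RPKM in the hindbrain. Forebrain values of Nsf were 31.6, 37.8 and 39.4 RPKM and alar plate values 26.7, 30.3 and 20.2 RPKM. Its dorsal midbrain difference of -0.27 ± 0.12 (SE; limma, adjusted p = 0.0888) was not called, though it was called among the 5 regions and in the hindbrain against the dorsal midbrain. Vamp1 and Napb, which had means of 2.41 and 21.3 RPKM, were not called in any comparison.

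Of the 5 calcium sensors and complexins, Cplx1 alone was called lower in the dorsal midbrain. Cplx1, a complexin that clamps and then aids fusion, had 4.22, 4.30 and 6.92 RPKM in the dorsal midbrain, against 10.5, 14.6 and 12.3 RPKM in the ventral midbrain and 11.7, 15.6 and 12.2 RPKM in the hindbrain. Forebrain values of Cplx1 were 8.30, 14.6 and 13.6 RPKM and alar plate values 7.30, 9.36 and 6.10 RPKM. The 3 dorsal midbrain libraries were below every library except alar plate 3, with a difference of -0.99 ± 0.18 (SE; limma, adjusted p = 0.00242). Syt11, a synaptotagmin that is not thought to sense calcium, had the highest mean of the whole set and nearly the same level in all libraries, with 85.4, 83.97 and 78.9 RPKM in the dorsal midbrain, against 87.9, 87.2 and 87.7 RPKM in the ventral midbrain and 80.3, 79.95 and 79.02 RPKM in the hindbrain. Forebrain values of Syt11 were 75.8, 78.1 and 83.97 RPKM and alar plate values 81.9, 77.3 and 77.9 RPKM. Its dorsal midbrain difference was 0.02 ± 0.05 (SE; limma, adjusted p = 0.761), and ventral midbrain libraries were the highest 3 of the 15. Syt4, another synaptotagmin of this kind, spread widely within regions, from 20.4 RPKM in dorsal midbrain 1 to 95.6 RPKM in forebrain 2, and was not called.

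Of the 4 genes of vesicle retrieval, 3 were called lower in the dorsal midbrain. Dnm1, the neuronal dynamin, had the highest mean of the group, with 12.55, 14.2 and 25.9 RPKM in the dorsal midbrain, against 25.2, 30.2 and 29.02 RPKM in the ventral midbrain and 37.97, 51.3 and 49.7 RPKM in the hindbrain. Forebrain values of Dnm1 were 28.5, 53.4 and 54.1 RPKM and alar plate values 36.4, 38.5 and 13.1 RPKM. Dorsal midbrain 1 was the lowest of the 15, alar plate 3 next, and the difference was -1.02 ± 0.30 (SE; limma, adjusted p = 0.0198). Dnm3, a relative, had 3.31, 4.40 and 7.22 RPKM in the dorsal midbrain, against 6.34, 8.49 and 8.41 RPKM in the ventral midbrain and 14.2, 15.97 and 13.7 RPKM in the hindbrain. Forebrain values of Dnm3 were 6.90, 16.2 and 15.2 RPKM and alar plate values 9.44, 11.1 and 3.04 RPKM. Alar plate 3 was the lowest, dorsal midbrain 3 lay above ventral midbrain 1 and forebrain 1, and the difference was -0.92 ± 0.31 (SE; limma, adjusted p = 0.0363). Amph encodes amphiphysin, which bends membrane and recruits dynamin, and had 7.11, 7.28 and 13.01 RPKM in the dorsal midbrain, against 18.4, 22.96 and 20.5 RPKM in the ventral midbrain and 20.98, 30.2 and 26.1 RPKM in the hindbrain. Forebrain values of Amph were 11.9, 24.9 and 24.3 RPKM and alar plate values 14.7, 17.2 and 6.65 RPKM. The dorsal midbrain range held forebrain 1, alar plate 3 was below it, and the difference was -1.01 ± 0.27 (SE; limma, adjusted p = 0.0134). Sh3gl2, which encodes endophilin A1, had 4.85, 5.05 and 5.90 RPKM in the dorsal midbrain, against 10.4, 10.9 and 10.8 RPKM in the ventral midbrain and 9.75, 14.8 and 13.8 RPKM in the hindbrain. Forebrain values of Sh3gl2 were 4.10, 13.3 and 14.7 RPKM and alar plate values 7.25, 9.57 and 4.04 RPKM. The dorsal midbrain values were below every library except alar plate 3 and forebrain 1, and the difference of -0.76 ± 0.28 (SE; limma, adjusted p = 0.0565) was not called.

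In 3 rows the dorsal midbrain was not below the mean of the other regions. Unc13b, the Munc13 protein that also works outside neurons, had 20.2, 19.96 and 20.1 RPKM in the dorsal midbrain, against 19.5, 18.7 and 20.3 RPKM in the ventral midbrain and 15.7, 14.5 and 14.9 RPKM in the hindbrain. Forebrain values of Unc13b were 17.02, 12.98 and 12.8 RPKM and alar plate values 15.7, 14.2 and 7.92 RPKM. The dorsal midbrain and ventral midbrain overlapped and both were above the other regions, and the difference of the dorsal midbrain, 0.40 ± 0.15 (SE; limma, adjusted p = 0.0524), was not called. With the 3 libraries that stand apart left out it was called higher, at 0.36 (limma, adjusted p = 0.000117), as was Cplx2, at 0.28 (limma, adjusted p = 0.0454). Syt11 was the remaining row, described above.

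In the ventral midbrain, set against the mean of the other 4 regions, 4 of 39 rows were called higher and 0 lower, where 7.43% of all genes tested were called higher and 3.16% lower. The share of rows called higher was thus near that of all genes. Among the rows called, Sv2b and Cadps2 stood out, with all 3 libraries above all 12 others. Sv2b is the vesicle glycoprotein restricted to part of the brain's neurons and had 6.69, 5.97 and 5.46 RPKM in the ventral midbrain, against 0.999, 0.662 and 0.768 RPKM in the hindbrain and 0.280, 1.32 and 2.04 RPKM in the forebrain. Alar plate values of Sv2b were 0.177, 0.138 and 0.219 RPKM and dorsal midbrain values 1.03, 1.01 and 1.98 RPKM. The next highest library was forebrain 3, and the difference was 1.97 ± 0.20 (SE; limma, adjusted p = 2.4e-05). Cadps2, the second CAPS protein, had 6.14, 5.37 and 5.82 RPKM in the ventral midbrain, against 1.30, 2.42 and 2.19 RPKM in the hindbrain and 0.961, 2.11 and 1.78 RPKM in the forebrain. Alar plate values of Cadps2 were 0.669, 0.314 and 0.541 RPKM and dorsal midbrain values 0.858, 0.544 and 2.17 RPKM. The gap to the highest other library, hindbrain 2, left no overlap, and the difference was 1.62 ± 0.20 (SE; limma, adjusted p = 0.000127). Cplx2, the complexin with the higher level in this tissue, had 97.6, 89.04 and 80.9 RPKM in the ventral midbrain, against 54.8, 39.98 and 42.2 RPKM in the hindbrain and 53.9, 41.2 and 39.4 RPKM in the forebrain. Alar plate values of Cplx2 were 68.1, 75.96 and 27.98 RPKM and dorsal midbrain values 64.8, 77.8 and 49.4 RPKM. The ventral midbrain libraries were again the highest 3, above dorsal midbrain 2 and alar plate 2, and the difference was 0.80 ± 0.24 (SE; limma, adjusted p = 0.0484). The call of Cplx2 held in 12 of 27 alternative settings, while those of Sv2b and Cadps2 held in all 27. Rph3a was called higher as well, at 1.20 ± 0.24 (SE; limma, adjusted p = 0.00518), though it overlapped the hindbrain and forebrain.

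Without alar plate 3 alone, 8 rows were called in the ventral midbrain, 7 higher and 1 lower. The 3 ventral midbrain libraries were above all 12 others in 4 rows, Syt11, Cplx2, Sv2b and Cadps2, where 4.89% of all genes tested showed such a gap. The median difference over the 39 rows was 0.19 against -0.02 over all genes tested. Without the 3 libraries that stand apart, 12 rows were called higher and 4 lower, and one of the 4 was Synpr, the vesicle protein synaptoporin, at -0.79 (limma, adjusted p = 0.0126). With all libraries Synpr had 1.02, 0.868 and 1.31 RPKM in the ventral midbrain, against 1.998, 5.80 and 3.99 RPKM in the hindbrain and 3.64, 5.27 and 3.89 RPKM in the forebrain. Alar plate values of Synpr were 1.98, 1.45 and 3.05 RPKM and dorsal midbrain values 1.62, 1.07 and 5.18 RPKM. Its ventral midbrain values were low, overlapped dorsal midbrain 2, and did not pass the test at -0.94 ± 0.29 (SE; limma, adjusted p = 0.0584).

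**Figure D3:**
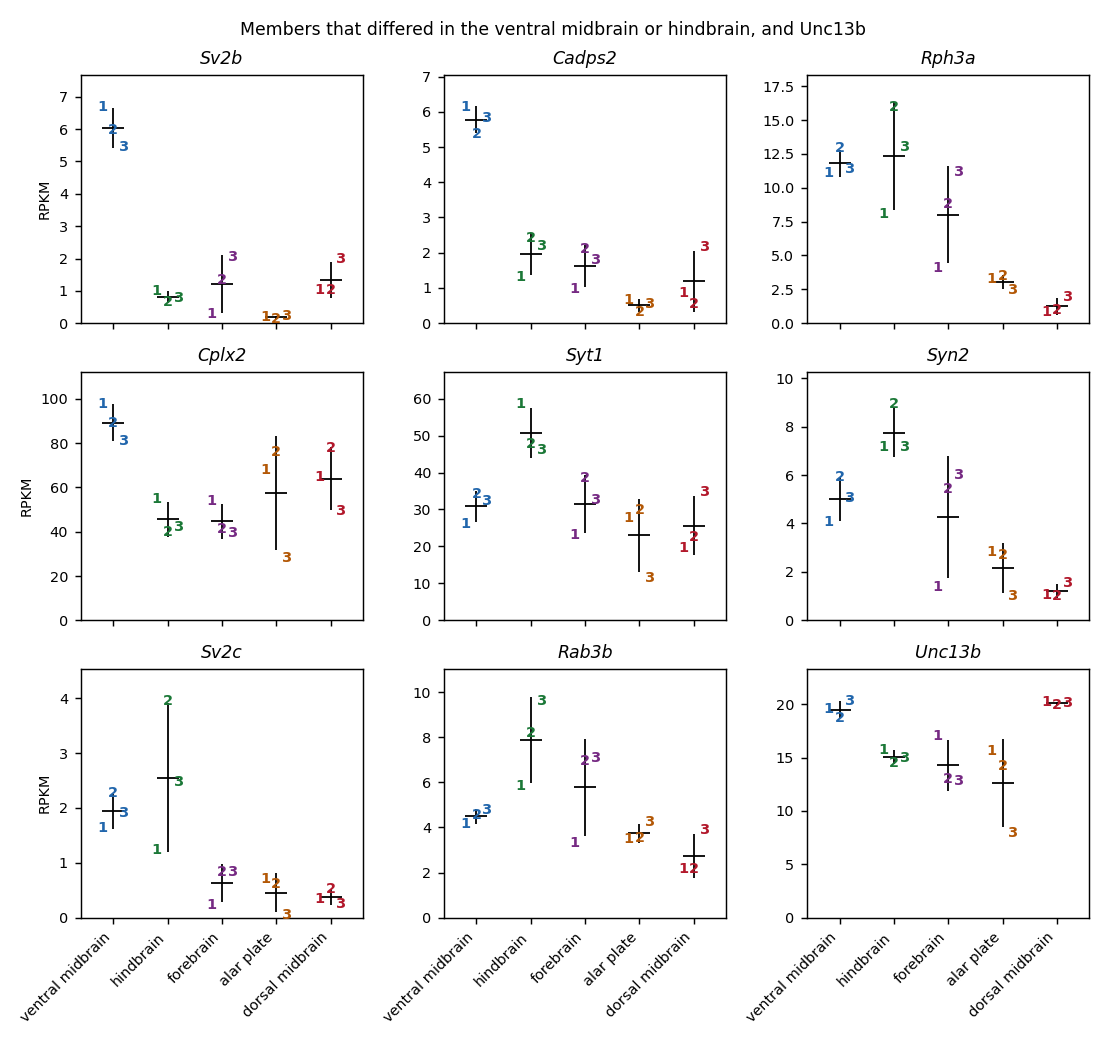
RPKM of 9 members in each library by region, with the ventral midbrain at the left, where points are libraries and bars the mean ± SD of 3. Sv2b, Cadps2 and Cplx2 are highest in the ventral midbrain, Syt1 and Syn2 in the hindbrain, and Rph3a is lowest in the dorsal midbrain.

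In the hindbrain, set against the mean of the other 4 regions, 5 of 39 rows were called higher and 0 lower, where 4.03% of all genes tested were called higher and 2.27% lower. The calcium sensor Syt1, the synapsin Syn2, rabphilin (Rph3a), Rab3b and Sv2c made up the 5. Syt1, the sensor of fast synchronous release, had 58.5, 47.6 and 46.03 RPKM in the hindbrain, against 26.03, 34.1 and 32.3 RPKM in the ventral midbrain and 23.1, 38.6 and 32.5 RPKM in the forebrain. Alar plate values of Syt1 were 27.6, 29.8 and 11.6 RPKM and dorsal midbrain values 19.6, 22.5 and 34.6 RPKM. The 3 hindbrain libraries were the highest of the 15 and the difference was 0.90 ± 0.24 (SE; limma, adjusted p = 0.0467), a call that held in 11 of 27 alternative settings. Syn2 in the hindbrain, at 7.15, 8.93 and 7.17 RPKM, was likewise above the other 12, of which forebrain 3 was highest at 5.99 RPKM, and the difference was 1.23 ± 0.28 (SE; limma, adjusted p = 0.019). For Rph3a, Rab3b and Sv2c the hindbrain overlapped other regions, with differences of 1.22 (limma, adjusted p = 0.00843), 0.81 (limma, adjusted p = 0.0256) and 0.96 (limma, adjusted p = 0.0184). Only Syt1 and Syn2 were above all 12 other libraries, where 2.34% of all genes tested showed such a gap. The median difference was 0.43, against -0.01 over all genes tested. Without hindbrain 2, or without hindbrain 3, 0 rows were called. The call count was 3 when hindbrain 1 was left out and 9 when dorsal midbrain 3 was, all higher. It was 11 when alar plate 3 was left out, with 10 higher and 1 lower. With all 3 libraries that stand apart left out, 29 rows were called higher and 3 lower.

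In the forebrain, set against the mean of the other 4 regions, 0 of 39 rows were called by limma, where 2.92% of all genes tested were called in either direction. An unadjusted p under 0.05 was found in 16 rows, but the share of all genes with such a p was not counted. The median difference was 0.36, against -0.03 over all genes tested. The forebrain libraries were spread: the vesicle genes summed to 787, 1178 and 1201 RPKM, where the dorsal midbrain had 541, 594 and 795 RPKM. Forebrain 1 was the lowest of the 3, and without the 3 libraries that stand apart 32 rows were called higher and 2 lower, with the 2 being Cplx2, at -0.73 (limma, adjusted p = 0.000646), and Unc13b, at -0.39 (limma, adjusted p = 0.000354). Without forebrain 1 alone, 6 rows were called higher, and without dorsal midbrain 3 alone 5 were called higher. Without alar plate 3 alone, 2 rows were called, both lower.

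In the alar plate, set against the mean of the other 4 regions, 2 of 39 rows were called lower and 0 higher, where 3.41% of all genes tested were called lower and 1.24% higher. They were Sv2b, at -1.24 ± 0.20 (SE; limma, adjusted p = 0.00373), and Cadps2, at -1.10 ± 0.20 (SE; limma, adjusted p = 0.00769), the genes that were highest in the ventral midbrain. The share of rows called lower was near that of all genes. Sv2b was below all 12 other libraries in all 3 alar plate libraries, where 0.808% of all genes tested showed such a gap. Its alar plate values of 0.177, 0.138 and 0.219 RPKM were above the floor of 3 reads at median length. Alar plate 3, the library with the length trend, held the lowest value of all 15 in 21 of 39 rows, a count not made over all genes. Without the 3 libraries that stand apart 4 rows were called lower, as many as without alar plate 1 alone or forebrain 1 alone. The median difference over the 39 rows was -0.33, against -0.01 over all genes tested.

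The ventral midbrain and the hindbrain were each set against the dorsal midbrain, so these comparisons share the 3 dorsal midbrain libraries. Earlier results of these data had shown the most cell division in the dorsal midbrain, and the hindbrain pair was chosen with this known. Its counts are thus not those of a pair picked without regard to the data. In the ventral midbrain 12 of 39 rows were called higher than in the dorsal midbrain and 0 lower, where 11.4% of all genes tested were called higher and 12.4% lower. The 12 were Rph3a, Cadps2, Sv2b, Syn2, Cplx1, Amph, Sv2c, Erc2, Syp, Syngr3, Stx1a and Vamp2. In the hindbrain 24 rows were called higher than in the dorsal midbrain and 0 lower, where 14.7% of all genes tested were called higher and 17.4% lower. By role, the 24 comprised 4 of 6 fusion genes, 2 of 5 calcium sensors and complexins, 4 of 7 vesicle membrane genes, 6 of 7 of the pool and Rab3 group, 4 of 10 active zone rows and 4 of 4 of retrieval. All 3 ventral midbrain libraries were above all 3 dorsal midbrain libraries in 22 rows, where 22.3% of all genes tested showed such a gap. All 3 hindbrain libraries were above them in 30 rows, where 25% of all genes tested did so, and below them in 2 rows, Sv2b and Unc13b, where 33.6% did so. Rph3a differed most in both, with 2.55 ± 0.30 (SE; limma, adjusted p = 9.37e-05) for the ventral and 2.57 ± 0.30 (SE; limma, adjusted p = 0.000132) for the hindbrain. Syt1 differed by 0.99 ± 0.31 (SE; limma, adjusted p = 0.0269) in the hindbrain and by 0.29 ± 0.31 (SE; limma, adjusted p = 0.527) in the ventral midbrain, which was not called. The difference between these 2 effects was not tested. Without the 3 libraries that stand apart, 32 rows were called higher in the ventral midbrain, and 35 higher and 2 lower in the hindbrain. The ventral midbrain count was 5 without ventral midbrain 2, 6 without dorsal midbrain 1, 7 without dorsal midbrain 2, 19 without dorsal midbrain 3 and 24 without alar plate 3. The hindbrain count was 11 without dorsal midbrain 1, 13 without dorsal midbrain 2, 13 without hindbrain 2 and 15 without hindbrain 3.

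Other lists of genes showed what else moved in the same libraries. In the dorsal midbrain against the other 4 regions, 13.8% of all genes tested were called lower and 18.2% higher, and the counts of this paragraph are from that comparison. Of the other presynaptic genes, 18 of 50 tested were called lower and 3 higher. Of the postsynaptic genes 12 of 24 were called lower and 2 higher, and of the pan-neuronal genes 10 of 19 lower and 0 higher. Tubb3, the neuronal tubulin, was not called, at -0.08 (limma, adjusted p = 0.579), and Stmn2, a stathmin of growing axons, was called lower, at -0.54 (limma, adjusted p = 0.00697). Of 16 proliferation genes tested, 16 were called higher, among them Top2a, the topoisomerase of dividing cells, at 1.73 ± 0.38 (SE; limma, adjusted p = 0.00583). Top2a had 145, 125 and 62.8 RPKM in the dorsal midbrain, against 39.2, 24.5 and 24.7 RPKM in the ventral midbrain and 36.4, 18.6 and 21.03 RPKM in the hindbrain. Forebrain values of Top2a were 63.6, 13.1 and 16.5 RPKM and alar plate values 49.7, 46.2 and 62.7 RPKM. Proneural and newborn neuron genes were called higher in 7 of 15 tested, 0 lower, and repressors of neuronal genes in 7 of 9, 0 lower.

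Markers of other cell types were counted in the same comparison, in which 18.2% of all genes tested were called higher and 13.8% lower. Of 8 markers of meninges and mesenchyme 7 were called higher, and their summed level was 66.9 to 127 RPKM in the dorsal midbrain, against 6.95 to 7.80 RPKM in the ventral midbrain, 4.65 to 8.64 RPKM in the hindbrain, 4.48 to 19.1 RPKM in the forebrain and 9.03 to 165 RPKM in the alar plate, and 0 of them were at 0 in the dorsal midbrain. Of 9 cranial ganglion and peripheral neuron markers 7 were tested and 2 called higher, a share near that of all genes, and their sum was 39.7 to 155 RPKM in the dorsal midbrain and 20.1 to 122 RPKM in the other 12 libraries. Of 7 endothelial markers 4 were called higher and 0 lower, and their sum was 48.3 to 63.4 RPKM in the dorsal midbrain and 36.5 to 60.2 RPKM in the other 12. Of 16 neural progenitor and radial glia genes 6 were called higher and 2 lower, and their sum was 1610.0 to 1743 RPKM in the dorsal midbrain and 1077 to 2134 RPKM in the other 12. Microglial markers were called higher in 1 of 5 tested, erythroid rows in 0 of 8 by limma, with 1 at an unadjusted p under 0.05, and oligodendrocyte precursor markers were called lower in 2 of 4. Erythroid markers summed to 5293 to 9715 RPKM in the dorsal midbrain and to 3865 to 10936 RPKM in the other 12, highest in alar plate 3. Of 4 choroid plexus markers 2 were tested, with 1 called higher and 1 lower. Another of them, Ttr, had 89.3 RPKM in alar plate 3 and at most 0.859 RPKM elsewhere. Proliferation genes summed to 442 to 943 RPKM in the dorsal midbrain and to 140 to 698 RPKM in the other 12. The part of each in the lower vesicle genes was not tested.

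**Figure D4:**
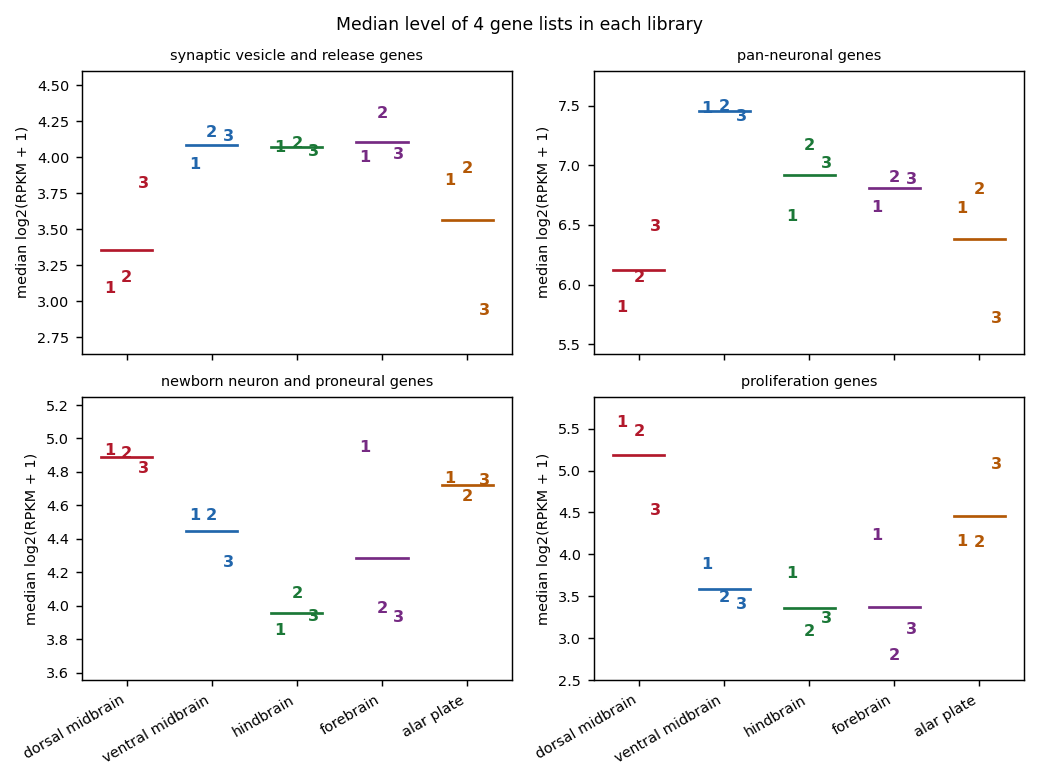
Medians of log2(RPKM + 1) per library of 4 lists of genes, with digits for the replicate number and bars for region means. The vesicle and release genes are lowest in alar plate 3, dorsal midbrain 1 and dorsal midbrain 2, the same libraries in which proliferation genes are highest.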

How the data were processed

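RNA-seq was measured in 15 libraries, 3 for each of 5 regions. The deposited table holds RPKM values, which the authors made from reads, with Bowtie and mm9 named in the submitters' processing notes. The version, annotation, counting rule and strand use were not given in the sources used here, so genes with near-identical copies or overlapping partners are uncertain. Per the labels' protocols, 200 ng of RNA went into each TruSeq library. All 38 members were found by symbol in the table. For the tests, log2(RPKM + 1) was computed from the deposited values, for the 13745 genes with at least 1 RPKM in at least 3 libraries. One limma fit (version 3.58.1, R 4.3.3, with a variance trend) held all 5 regions. It gave a test of any difference, each region minus the mean of the other 4, and the ventral midbrain and the hindbrain minus the dorsal midbrain. Tests were two-sided, with Benjamini-Hochberg adjustment within each comparison. Reads were recovered from the RPKM steps only to give depth and 1 alternative, and were whole numbers (to within 0.02 reads where few, and never beyond 0.15) for 16541 of 16612 genes (99.6%). The scripts were tested on simulated data. The members, gene lists, roles, alternatives and the comparison of the hindbrain with the dorsal midbrain were chosen with earlier results of these data known. By the rule for named genes, values of every library are given for each member called in any test and for the member of highest mean in each role group, with up to 4 members by mean from the other lists. Rest, Gbx2, Tcf7l2, Hoxa2, Hoxb2, Tph2, Ttr and the library values of Synpr were named after their values were seen. Map2 of the pan-neuronal list was found under an older symbol. Some genes of the other lists are not reported here. The replicate numbers were not taken to pair the samples. Promoter sequences are from RefSeq on GRCm38.p6, another build than mm9, and no coordinate of the table was used.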

Additional observations from a re-analysis of the deposited data

How the results depend on the processing

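The counts of called rows, of 39, moved with several of the choices and with most of the single libraries left out. The share of all genes called is not given for these settings, so the counts cannot be set against it. With library quality weights, 39 differed among the 5 regions, 17 in the ventral midbrain, 33 in the hindbrain, 34 in the forebrain, 5 in the alar plate and 38 in the dorsal midbrain against the other 4 regions, 33 in the ventral and 38 in the hindbrain against the dorsal midbrain. Without the 3 libraries that stand apart, the same counts were 39, 16, 32, 34, 4, 37, 32 and 37. With the other 12 libraries as 1 group, 2 were called in the ventral midbrain, 0 in the hindbrain, 0 in the alar plate and 13 in the dorsal midbrain, since the spread of that group then holds the differences between its regions. With log2(RPKM + 0.1), or with a filter at 5 RPKM, 3 were called in the hindbrain. With the gene length trend removed, 7 were called in the ventral midbrain, and with only the 2 groups compared, 21 in the ventral against the dorsal midbrain. Leaving out 1 library at a time gave 7 to 35 that differed among the 5 regions, 3 to 8 in the ventral midbrain, 0 to 11 in the hindbrain, 0 to 6 in the forebrain, 2 to 4 in the alar plate, 4 to 31 in the dorsal midbrain, 5 to 24 in the ventral and 11 to 32 in the hindbrain against the dorsal midbrain. The replicate block gave 22 that differed among the 5 regions, 6 in the ventral midbrain (5 higher, 1 lower), 5 in the hindbrain, 2 in the forebrain, 3 in the alar plate and 21 in the dorsal midbrain (20 lower, 1 higher), and 15 in the ventral and 23 in the hindbrain against the dorsal midbrain. Deviations from the region mean correlated above 0.1 in 18 of 30 pairs of samples with the same number (median r 0.236) and in 17 of 60 pairs with different numbers (median r -0.099). Pairs with the same number were thus above 0.1 more often, and a part shared by number may remain in the main fit. As not every pair with the same number was above 0.1, the numbers were not taken to pair the samples there. The replicate block gives the counts with the numbers in the fit. The remaining settings, among them another scaling and limma-voom on recovered reads, which was added after the data were seen, kept the counts within 1.5 times. Of the 67 calls of a member in a comparison, 21 held in every alternative, and 0 changed sign. edgeR and DESeq2 were not run, because the deposited unit is RPKM and not counts. Depth limits Sv2c most, with 2 recovered reads in its lowest library.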
